A study of Mus musculus with 18 samples.

Results

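Biotinylated miR-92b was used to collect RNA from nuclear lysate of Neuro2A cells, and the same beads were used on nuclear lysate of control cells to give the background. The comparison used 6 of the 18 samples of the series, 3 nuclear miR-92b and 3 nuclear control samples, chosen by their labels, and the 52179 loci with a gene symbol of 168136 in all. Neuro2A (N2A) is a mouse neuroblastoma cell line, wild type in every group. The miR-92b samples came from cells transfected with 25 nM of the mimic and lysed 48 h later. The control samples came from cultures that received no mimic, which the paper describes as untransfected. The miR-92b and control groups therefore differ in transfection as well as in the mimic. The part that transfection has in any difference between them was not tested. RNA held by the mimic was collected on streptavidin beads, and libraries were made from poly(A)-selected RNA, so the control samples measure what the beads collected without a mimic. Nuclear samples from cells transfected with 25 nM of a biotinylated scrambled sequence (Scr, 3 samples) and the whole cell samples of miR-92b and control (3 each) are given beside the results where they differ. Nothing in the labels says that the 3 samples of a group are separate cultures, so p-values measure only a spread between samples. In the main test that spread was pooled over all 18 samples of the series, not taken from the 6 compared samples alone. Values are normalized counts, which are relative within a library. The amount of RNA that each pulldown collected is not in them.

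A microRNA is a short RNA that guides an Argonaute protein to other RNAs, mainly through its seed, the stretch near its 5′ end that pairs with a complementary site in the 3′ UTR of a messenger RNA. Argonaute recruits TNRC6 proteins, which slow translation and speed decay of the bound transcript. In a pulldown with a biotinylated mimic, transcripts held by the mimic are collected above the bead background. miR-92b belongs to the miR-25/92 family, whose members share a seed. Mature sequences from RefSeq (GRCm38.p6) are shown because this shared seed sets which transcripts the family is known to bind, with bases 2 to 8 in capitals.
mmu-miR-92b-3p: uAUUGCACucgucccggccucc
mmu-miR-92a-3p: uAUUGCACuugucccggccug
mmu-miR-25-3p: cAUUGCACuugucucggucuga
mmu-miR-32-5p: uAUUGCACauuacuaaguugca
mmu-miR-363-3p: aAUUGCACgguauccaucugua
mmu-miR-367-3p: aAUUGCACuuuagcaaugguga
All 6 carry the seed AUUGCAC. miR-92a-3p equals miR-92b-3p at 19 positions counted from the 5′ end, miR-25-3p at 16 and miR-32-5p at 11. The complement of the seed in a transcript is GTGCAAT, here called a 7mer-m8 site, and with an A after it GTGCAATA, an 8mer site. A 7mer-A1 site is TGCAATA. Sites were searched on the transcribed strand of the 3′ UTR only, and a locus was classed by its best site.

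No locus differed between the miR-92b samples and the bead background at the threshold used. Among 15579 loci that averaged 10 or more normalized counts across the 18 samples, limma called 0 (0%) at an adjusted p of 0.05, and the smallest adjusted p was 0.9999. At an unadjusted p under 0.05 there were 50 loci (0.321%), 47 higher (0.302%) and 3 lower (0.0193%) with miR-92b. This number depended on which samples set the spread. With the spread taken from the compared groups only, limma called 0, with 242 loci under 0.05 unadjusted. On reads recovered from the values, the quasi-likelihood test of edgeR called 0, with 19 loci under 0.05 unadjusted, and DESeq2 called 0, with 32. In 674 loci (4.33%) every miR-92b sample was above every control sample, and in 491 (3.15%) every one was below. With 3 samples against 3, an exact permutation test of 1 locus cannot give a p below 0.1.

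Abundant transcripts were measured closely enough to limit what a difference could be. Among the 2848 loci with a mean of at least 500, the median 95% confidence interval reached 0.46 to either side of the log2 fold change, and in 97.1% of them the whole interval lay within a 2-fold change. Their log2 fold changes ran from -0.20 to 0.24 between the 5th and 95th percentiles. Precision fell with abundance. At a mean of 100 to 500 the median interval reached 0.82 to either side, at 50 to 100 it reached 1.81, and at 10 to 50, which held 5008 loci, it reached 3.10. Below a mean of 100 no interval lay within a 2-fold change, so a 2-fold difference could not be told from none there.

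One control library stood apart from the other nuclear samples compared. Control sample 3 had reads on 15732 loci with a symbol, against 20631 and 20021 in the other control samples and 20241 to 21421 in the miR-92b samples. Its reads on these loci numbered 3752991, and the range over the other 5 samples was 3895609 to 16931731, with miR-92b sample 2 the deepest. Over the tested loci its log2 values correlated with those of the other 5 samples at r of 0.830 to 0.839. Control samples 1 and 2 correlated with each other at 0.940 and with the miR-92b samples at 0.934 to 0.952, close to the 0.943 to 0.955 among the miR-92b samples. These correlations are across genes, which are not independent replicates.

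Large positive fold changes went with zeros in that library. In control sample 3 alone, 269 tested loci were listed at 0 while each of the other 5 samples held at least 20 normalized counts, and no other sample had such a locus. Their median log2 fold change was 1.83 with all samples and 0.02 without control sample 3. Of the 302 loci with a log2 fold change above 2, 285 (94.4%) were at 0 in control sample 3, and 35 loci were below -2. Without that sample the counts above 2 and below -2 were 62 and 30. The median over all tested loci was 0.03 with it and 0.01 without it. Whether the library's lower complexity produced these folds was not tested.

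**Figure D1:**
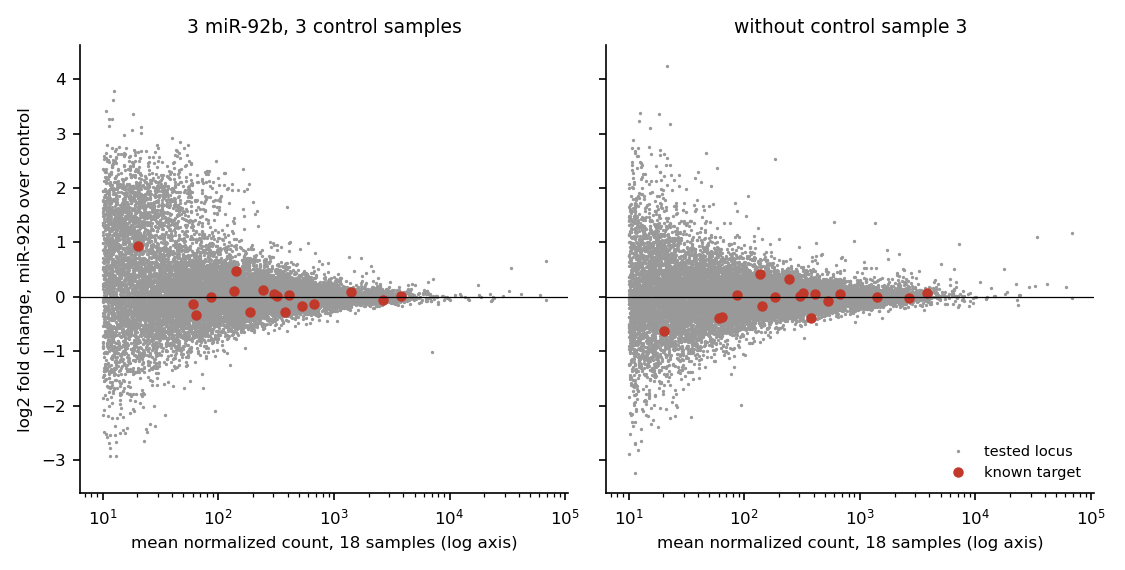
Fold change (log2, miR-92b over control) of each of the 15579 tested loci (grey) against its mean normalized count over 18 samples (log axis), with the 17 known targets of the miR-92 family in red. The left panel uses all 6 samples and shows a cloud of low loci above 1 that is thinner in the right panel, which leaves out control sample 3 (302 and 62 loci above 2).

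No known target of the family was called above background. The list held transcripts described as miR-25/92 family targets, 17 of whose 31 loci were tested. None passed the test, none had an unadjusted p under 0.05, and 10 of 17 had a positive log2 fold change, with a median of 0.01 beside 0.03 over all tested loci. No target lay above control in every sample, and Man2a1 (5.88% of the list) lay below it, beside 4.33% and 3.15% of all tested loci. Target sites from GENCODE M21 transcripts (GRCm38) are shown for 4 of these genes, those described next, with the bases complementary to the seed, and the A that follows in an 8mer, in capitals.
Cpeb2 chr5:43288880-43288909, plus strand: tgtgttgtgatGTGCAATActgtttctaat
Man2a1 chr17:64752612-64752641, plus strand: cttggtttaacGTGCAATAactaagcacat
Bcl2l11 chr2:128162438-128162467, plus strand: ccactgtacctGTGCAATActgctgtaaat
Dkk3 chr7:112118163-112118192, minus strand: cactggtagatGTGCAATAgaaatggctaa
All 4 are 8mer sites in the 3′ UTR of the gene.

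Cpeb2, which binds cytoplasmic polyadenylation elements in messenger RNAs, lies in a locus shared with 6030400A10Rik and Gm42551. That locus had 4543, 4649 and 4526 normalized counts with miR-92b and 3889, 4839 and 4903 in control. The log2 fold change was 0.02 (interval -0.31 to 0.34). Bcl2l11, which encodes the pro-apoptotic protein BIM, had 105, 103 and 112 with miR-92b and 107, 101 and 112 in control, nearly the same values in both groups. Its interval was wider, from -1.12 to 1.12.

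Dkk3, a secreted protein of the Dickkopf family, had 814, 1012 and 1038 normalized counts with miR-92b and 995, 899 and 793 in control, with overlapping groups and an interval from -0.30 to 0.47. Man2a1, a mannosidase of the Golgi, was the one target whose groups did not overlap, with 414, 420 and 431 against 451, 442 and 524. Its log2 fold change was -0.16 (interval -0.66 to 0.34). In nuclear Scr it had 491, 620 and 337, a range that covered both other groups.

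Among the other targets, Btg2, an anti-proliferative gene with a pair of 8mer sites, had 264, 209 and 156 normalized counts with miR-92b and 241, 173 and 362 in control. Map2k4, a kinase upstream of JNK, had 422, 399 and 415 against 374, 419 and 411. Both overlapped control. Fbxw7, a ubiquitin ligase subunit, had 266, 309 and 300 against 222, 239 and 362, and its control sample 3 was the highest of the 6.

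Kat2b, a lysine acetyltransferase, had 260, 220 and 315 normalized counts with miR-92b and 308, 379 and 271 in control. Itgav, an integrin subunit, had 260, 240 and 279 against 260, 250 and 242. The integrin subunit Itga5 was near the floor, with 9.56, 12.5 and 29.6 against 18.8, 30.9 and 0. Its log2 fold change of 0.93 became -0.62 without control sample 3, the library listed at 0. The 5 remaining targets that were tested, Hipk3, Slc12a5, Tob1, Klf4 and Cpeb3, had log2 fold changes from -0.33 for Klf4 to 0.47 for Slc12a5, whose value was -0.16 without control sample 3. Smad7, an inhibitor of TGF-beta signalling, had 0.01. Cdkn1c, Eomes and Klf2 were below the filter.

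**Figure D2:**
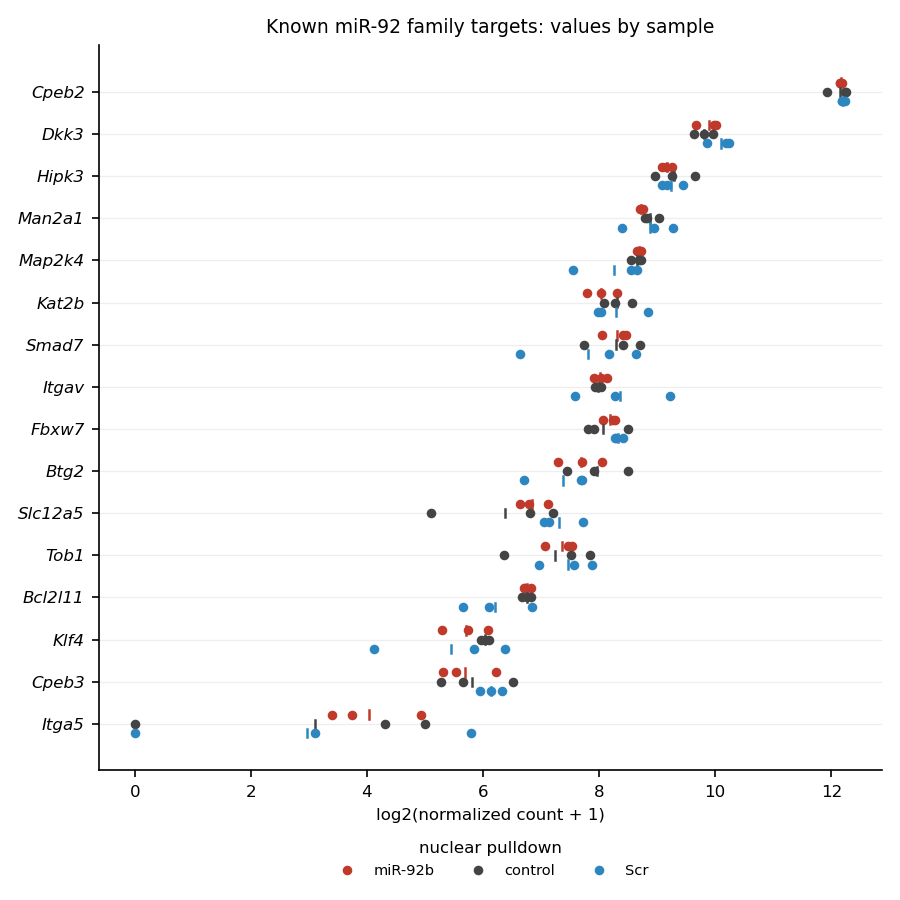
Values of 16 of the 17 tested known targets in the nuclear samples as log2(normalized count + 1), with 1 point for each sample and a vertical tick at the group mean. Red miR-92b points overlap the grey control points in each gene but Man2a1, which had 414 to 431 normalized counts with miR-92b and 442 to 524 in control.

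Loci with a seed match had median fold changes close to those of loci without one. Of 10533 tested loci of 1 symbol whose gene has an annotated 3′ UTR, 294 held an 8mer, 535 a 7mer-m8, 712 a 7mer-A1 and 8992 none of these. Over all 21020 genes with a coding transcript and a 3′ UTR the shares were 2.27%, 4.28%, 6.15% and 87.3%. The median log2 fold change was 0.04 for 8mer loci, 0.02 for 7mer-m8, 0.01 for 7mer-A1 and 0.03 for loci with no site. Without control sample 3 these medians were 0.037, 0.027, 0.006 and 0.010. Loci above control in all samples made up 2.72%, 3.36%, 2.67% and 4.54% of these classes, beside 4.33% of all tested loci, and loci below control 2.72%, 5.05%, 3.23% and 3.17%, beside 3.15%. limma called 0 loci of any class. At an unadjusted p under 0.05 there were 0, 0, 4 and 37. For the 210 loci with 2 or more sites the median was 0.02. The classes differed in abundance, with a median mean normalized count of 321 for 8mer loci and 144 for loci with no site, and in median 3′ UTR length, 2560 and 1076 bases.

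**Figure D3:**
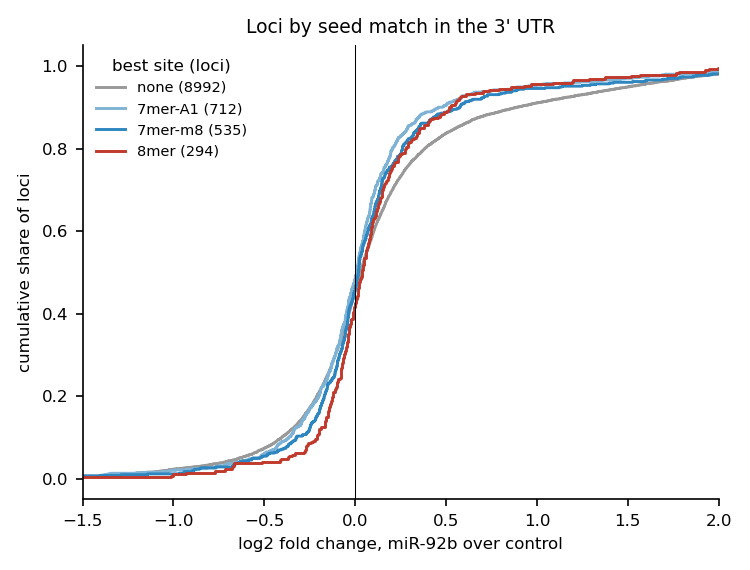
Cumulative share of loci against log2 fold change (miR-92b over control), by the best seed match in the 3′ UTR. The curves cross near 0, with medians of 0.04 (8mer), 0.02 (7mer-m8), 0.01 (7mer-A1) and 0.03 (none), and the curve for loci with no site, which are less abundant, is the flattest.

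No locus of the microRNA machinery passed the test. All 7 Argonaute and TNRC6 loci were tested, and their median log2 fold change was 0.01. Ago2, the Argonaute that can cleave its target, shares its locus (chr15:73090392-73423191, GRCm38) with Ptk2. It had 3532, 3420 and 3477 normalized counts with miR-92b and 3173, 3251 and 3289 in control. Each miR-92b sample was above each control sample, but by little, with a log2 fold change of 0.10 (interval -0.20 to 0.41). Of the 7 loci only that of Ago2 was so placed (14.3%, beside 4.33% of all tested loci). Its values in nuclear Scr, 3701, 3385 and 3549, overlapped those of miR-92b and not those of control.

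Tnrc6a had 2737, 2472 and 2539 normalized counts with miR-92b and 2763, 2553 and 2497 in control, and Tnrc6b and Tnrc6c had log2 fold changes of 0.06 and -0.16. Ago1 and Ago3 had 0.01 and 0.27. Ago4 was low in every sample, with 24.6, 20.9 and 16.7 against 21.7, 18.8 and 45.9. Of the 10 tested genes for microRNA processing and export, none passed, and the median was 0.04. In 3 (30%) the groups did not overlap and miR-92b was higher, beside 4.33% of all tested loci. The median of the list was 0.17 for nuclear Scr over control and -0.01 for miR-92b over Scr.

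These 3 were Dicer1, which cuts microRNA precursors, Prkra, which binds Dicer, and the helicase Ddx17, a cofactor of Drosha. Dicer1 had 963, 899 and 948 normalized counts against 887, 750 and 733 (log2 fold change 0.25, interval -0.22 to 0.72). Prkra had 199, 211 and 207 against 149, 160 and 127 (log2 fold change 0.51, interval -0.15 to 1.17). Ddx17 had 5215, 5314 and 5296 against 4945, 5195 and 5161, a log2 fold change of 0.05. They are singled out after their values were seen. Of the loci that hold hairpins of the family, Mcm7 with Mir25 and the Mir17hg cluster with Mir92-1 were tested and had log2 fold changes of -0.10 and -0.03. Mir92b itself was listed at 0 in all nuclear samples, and the mimic is not measured by these libraries.

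Some transcripts that stay in the nucleus were abundant in both groups. Malat1, a long noncoding RNA retained in nuclear speckles, was among the 5 loci with the highest mean FPKM with miR-92b. It had 103245, 89319 and 86148 normalized counts with miR-92b and 97679, 91489 and 101533 in control. In FPKM, which corrects for transcript length, it stood at 2329 ± 254 with miR-92b (SD, n = 3) and 2305 ± 122 in control. The other 4, Gm43940, Gm37917, Gm42860 and Rn7sk (the 7SK RNA, which holds the elongation factor P-TEFb inactive), had log2 fold changes of -0.67, 0.14, 0.05 and 0.27, each with an interval that included 0. Neat1, the scaffold of paraspeckles, had 36168, 27029 and 28042 normalized counts against 32003, 30414 and 32452. Of 10 tested nuclear-retained long noncoding RNAs, none passed, and the median log2 fold change was -0.01. Only Rian, from the imprinted Dlk1-Dio3 region, did not overlap control (10%, beside 4.33% of all tested loci above control). Rian had 145, 210 and 162 against 111, 126 and 130, with a log2 fold change of 0.48 (interval -0.52 to 1.48).

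Mitochondrially encoded reads, a sign of cytoplasm, made up 0.0268% to 0.112% of the reads in these 6 samples and 2.14% to 7.15% in the whole cell samples of the series. Among the nuclear-retained RNAs and the speckle and paraspeckle genes, the lists were close to 0. The median was -0.02 for 9 paraspeckle and FET protein loci, 0.05 for 12 SR splicing factors and 0.01 for 15 CLK kinase and detained-intron genes. Luc7l3, a splicing factor of the last list, lay above control in all samples (6.67% of the list, beside 4.33% of all tested loci). It had 1315, 1267 and 1358 against 1168, 1186 and 1183 (log2 fold change 0.15, interval -0.39 to 0.70).

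Small nucleolar RNAs, which guide modification of ribosomal RNA, are short and mostly lack a poly(A) tail. Of 124 loci with a snoRNA or scaRNA symbol, 57 were listed at 0 in all 18 samples and 67 were tested, but 64 of these share their locus with a host or neighbouring gene. Only Scarna2, Scarna6 and Scarna13 were tested alone. Scarna2, a guide RNA of the Cajal body, had 619, 741 and 675 normalized counts with miR-92b and 438, 535 and 1133 in control. Its log2 fold change was 0.07 (interval -0.73 to 0.88) and 0.48 without control sample 3, the highest of the 6. Scarna6 and Scarna13 had -0.09 and -0.54, with intervals over 3 to either side.

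Over the 67 tested loci none passed, 4 lay above control and 1 below it in all samples (5.97% and 1.49%, beside 4.33% and 3.15% of all tested loci), and the median log2 fold change was 0.07. Without control sample 3 the median was 0.13, and 19 loci (28.4%) lay above control, beside 9.14% of all. The 4 were the loci of Atp5b with Snord59a, Rpl13a with Snord33, Rps13 with Snord14a and Rpl10 with Snora70, with log2 fold changes of 0.18, 0.43, 0.41 and 0.25, and the 1 was Snhg1 with Snord22, with -0.13. Their symbols are given after the values were seen. In such loci the reads of the snoRNA cannot be told apart from those of the host gene, and 3 of the 4 host genes encode ribosomal proteins. The 20 tested snoRNA host genes had a median of 0.06, and the 22 nucleolar and snoRNP protein genes a median of 0.00, with none above or below control in all samples. Npm1, a chaperone of the nucleolus, had 1610, 1690 and 1417 against 1340, 1464 and 1506. Ncl, which encodes nucleolin, had 2013, 2152 and 1818 against 1844, 2186 and 2063.

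Transcripts of cytosolic ribosomal proteins, which make up the translating ribosome, formed a large family. In limma none of 87 tested loci passed, and none had an unadjusted p under 0.05, though Rplp1 was called with sample weights. Of these, 61 had a positive log2 fold change, 12 (13.8%) lay above control in all samples and 0 below, beside 4.33% and 3.15% of all tested loci. The median log2 fold change was 0.16, and leaving out each sample in turn gave 0.03 to 0.30. Without control sample 3 the median was 0.30, and 46 loci (52.9%) lay above both remaining control samples, and 0 lay below them, beside 9.14% and 7.54% of all tested loci. Summed over the family, the values were 33138, 34926 and 36875 with miR-92b and 28929, 29242 and 41175 in control, so that control sample 3 was the highest of the 6 and the other control samples the lowest.

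Rps16, of the small subunit, had 175, 217 and 225 normalized counts with miR-92b and 133, 94.1 and 153 in control, with a log2 fold change of 0.71 (interval -0.26 to 1.68). Rplp0, of the ribosomal stalk, had 438, 554 and 657 against 310, 411 and 805, and overlapped control through control sample 3. Rps16 is named after its values were seen. Ribosomal protein genes have many processed copies in the genome, so their reads may be split between loci.

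Mitochondrial and cytoplasmic transcripts are given beside this family. The mitochondrial locus from mt-Co1 to mt-Nd5 had 1139, 1933 and 2604 normalized counts with miR-92b and 672, 1025 and 2786 in control. Its log2 fold change was 0.53 (interval -0.59 to 1.64) and 1.11 without control sample 3. The locus with mt-Rnr1, mt-Rnr2, mt-Nd1 and mt-Nd2 had 1404, 2379 and 3427 against 693, 1444 and 2914. All 4 tested mitochondrial loci had a positive log2 fold change, with a median of 0.59, and none lay above control in all samples. That of mt-Nd6, which was near the floor and listed at 0 in control sample 3, went from 0.74 to -0.42 without that sample. The 9 cytoplasmic fraction markers had a median of 0.08, with 7 positive. The elongation factor Eef2 had 1713, 2107 and 2163 against 1674, 1596 and 2674. The glycolytic enzyme Gapdh had 1050, 808 and 779 against 1037, 653 and 998. In nuclear Scr samples the ribosomal protein sums were 30173, 50094 and 59792, and mitochondrial reads made up 0.0514%, 0.237% and 0.485%. The part that carry-over of cytoplasm has in these values was not tested.

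**Figure D4:**
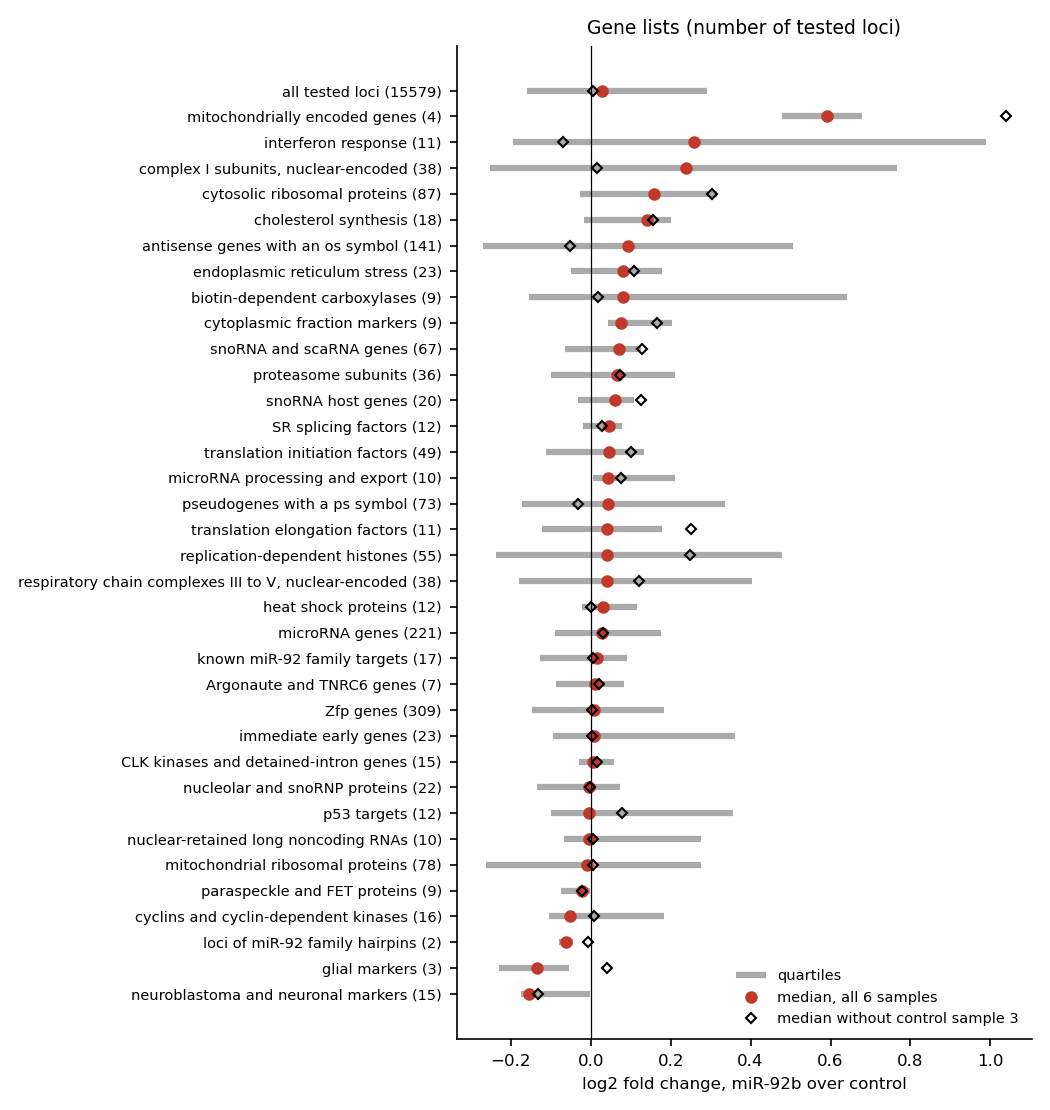
Median log2 fold change (miR-92b over control) for each gene list (red), its quartiles (grey bars) and its median without control sample 3 (open diamonds), with the number of tested loci in parentheses and all tested loci on top. The mitochondrially encoded genes had the highest median (0.59), cytosolic ribosomal proteins stood at 0.16, or 0.30 without control sample 3, and the known miR-92 family targets stood at 0.01.

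The loci nearest to the threshold were of low or middle abundance. The 5 in each direction with the smallest p whose groups did not overlap are named although none passed, each with an adjusted p of 0.9999 in limma. Deptor, an inhibitor of mTOR, had 82.0, 89.6 and 104 normalized counts with miR-92b and 60.7, 37.6 and 3.16 in control, with a log2 fold change of 2.11 (interval 0.51 to 3.70) and 0.92 without control sample 3. Hhex, a homeobox transcription factor, had 17.8, 38.7 and 30.9 against 14.4, 6.72 and 0 (log2 fold change 2.55, interval 0.48 to 4.61). Ubxn1, a cofactor of the p97 ATPase, had 98.3, 54.2 and 45.0 against 36.1, 40.3 and 1.58. In each of these control sample 3 was the lowest.

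Dctn6, a subunit of dynactin, had 76.5, 67.3 and 91.3 normalized counts against 44.8, 57.8 and 0, and its log2 fold change of 2.50 became 0.60 without control sample 3. The log2 fold change of Ubxn1 was 0.69 without that sample. Cdkn3, a phosphatase that acts on cyclin-dependent kinases, had 5.46, 18.5 and 7.72 with miR-92b, from 65 reads in all, and was listed at 0 in the 3 control samples. Of the tested loci, 12 were at 0 in all 3 control samples and 2 in all 3 miR-92b samples. Against a floor of 3 reads over the control group, the mean of Cdkn3 with miR-92b was at least 7.28-fold higher. This bound covers the control reads only and leaves out the spread of the miR-92b samples. Sample 2 of miR-92b, the deepest library, held 55 of the 65 reads, and without it the bound was 4.54-fold. The same locus had 10.7, 32.2 and 26.5 in nuclear Scr, with a log2 fold change of -1.09 for miR-92b over Scr (interval -3.88 to 1.69). Of these 5 loci, Ubxn1 has a 7mer-A1 site and the others no site in the annotated 3′ UTR.

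Of the loci that were lower with miR-92b, Mpst, which encodes a mercaptopyruvate sulfurtransferase, had the smallest p. It had 4.10, 6.06 and 3.86 normalized counts with miR-92b, 27.4, 16.1 and 26.9 in control and 15.2, 57.5 and 32.8 in nuclear Scr. The miR-92b samples were the 3 lowest of the 9, with a log2 fold change of -2.09 against control (interval -3.59 to -0.59, unadjusted p = 0.008 in limma, which did not pass adjustment). Against Scr it was -2.51 (interval -4.01 to -1.01), which did not pass adjustment either. It rests on 24 reads in the miR-92b samples and 48 in control.

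Dph2, an enzyme of diphthamide synthesis, had 27.3, 36.0 and 36.0 normalized counts against 60.7, 76.6 and 155. The sorting receptor Sort1, whose locus also holds Gm12525, had 266, 272 and 331 against 377, 339 and 565. Ccnk, a cyclin of the kinases that act on RNA polymerase II, had 225, 192 and 240 against 331, 308 and 296. Diablo, a mitochondrial protein released in apoptosis, had 376, 264 and 361 against 401, 426 and 560. Their log2 fold changes were -1.42, -0.53, -0.51 and -0.47. Mpst, Dph2, Ccnk and Diablo have no seed match in the annotated 3′ UTR, and the Sort1 locus was not classed because it joins more than 1 symbol.

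**Figure D5:**
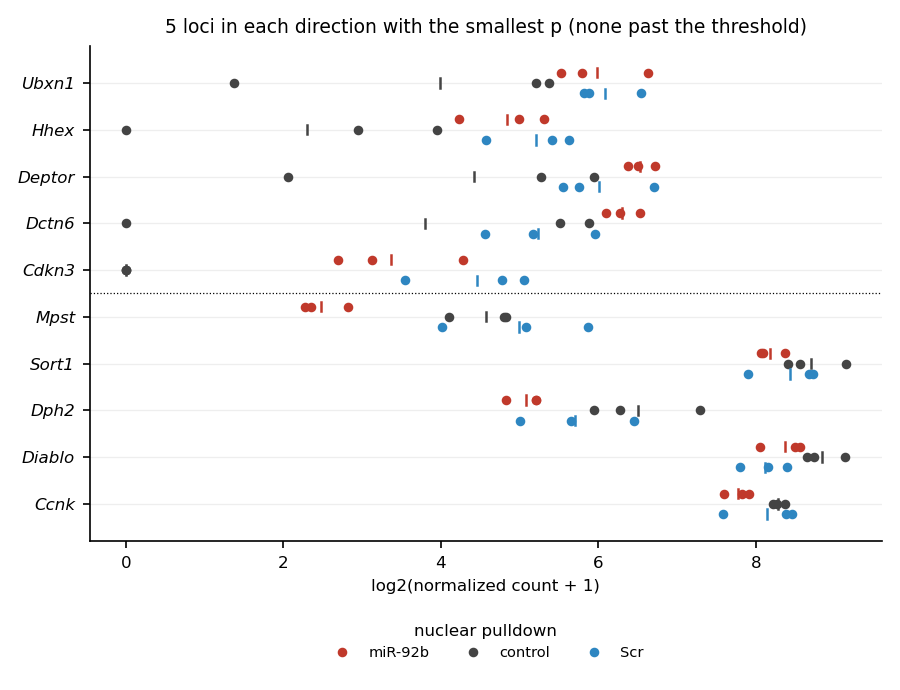
Values in the nuclear samples of the 10 loci named by p, as log2(normalized count + 1), with 1 point for each sample and a tick at the group mean. Loci above the dotted line were higher with miR-92b than control in all samples, and in each of them control sample 3 was the lowest or, for Cdkn3, all control samples were listed at 0.

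Of the lists for stress and growth programs, limma called no locus. Pdia3, a disulfide isomerase of the endoplasmic reticulum, reached an unadjusted p under 0.05 and, of the alternatives run, was called only with sample weights. It had 143, 202 and 161 normalized counts against 144, 48.4 and 80.7 (log2 fold change 1.01, interval 0.22 to 1.79). Its groups overlapped at control sample 1, and the median of the 23 tested genes for endoplasmic reticulum stress was 0.08. Of 11 tested interferon genes, 1 (9.09%, beside 4.33% of all tested loci) lay above control, the RNA sensor Ddx58. It had 13.7, 13.1 and 33.4 against 8.66, 0 and 4.75 (interval of the log2 fold change -0.94 to 5.61). The list's median was 0.26 and became -0.07 without control sample 3. The immediate early gene Fos had 112, 104 and 100 against 73.7, 59.2 and 38.0, and its list of 23 a median of 0.01.

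Of 18 tested genes of cholesterol synthesis, 12 had a positive log2 fold change, 3 (16.7%) lay above control in all samples and 0 below, beside 4.33% and 3.15% of all tested loci, and the median was 0.14. Without control sample 3, 5 (27.8%) lay above, beside 9.14% of all. Summed over the list, the values were 9521, 9897 and 10068 with miR-92b and 8148, 9424 and 11802 in control. The median was 0.17 for nuclear Scr over control and -0.11 for miR-92b over Scr. Dhcr7, which acts in the last steps of the pathway, had 134, 121 and 149 normalized counts against 96.8, 86.1 and 74.4, and Msmo1 736, 757 and 791 against 715, 699 and 623. Dhcr7, Msmo1 and Fos were named after their values were seen. Biotin-dependent carboxylases bind streptavidin as proteins, and their 9 tested loci, among them Acaca with 1758, 1624 and 1530 against 1446, 1388 and 1710, had a median of 0.08.

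Of 12 tested heat shock genes and 12 p53 targets none passed, with medians of 0.03 and 0.00. Above control in all samples lay 1 heat shock gene (8.33%) and 2 p53 targets (16.7%), beside 4.33% of all tested loci, and 0 of either list lay below. Without control sample 3, 4 p53 targets (33.3%) lay above and 1 (8.33%) below, beside 9.14% and 7.54% of all, and their median was 0.08. The chaperone Hsp90ab1 had 1821, 1451 and 1280 normalized counts with miR-92b and 1623, 1076 and 1989 in control. Mdm2, the ubiquitin ligase of p53, had 1347, 1380 and 1460 against 1344, 1346 and 1467, nearly the same in both groups. Of the 16 cyclin and cell cycle loci, with a median of -0.05, the proliferation marker Mki67 had 3348, 2817 and 3117 against 3015, 2939 and 3424. The 38 tested loci listed for nuclear-encoded complex I subunits had a median of 0.24, or 0.01 without control sample 3. In the lists of translation initiation factors (49 loci) and elongation factors (11 loci) the median was 0.04 in each. Without control sample 3 the medians were 0.10 and 0.25, and 45.5% of the elongation factor loci lay above control and 18.2% below, beside 9.14% and 7.54% of all. Eif4b had 3333, 3721 and 3378 against 3095, 3414 and 3398, and Eef1a1 had 1934, 2291 and 2261 against 1576, 1459 and 2789. The other lists, from mitochondrial ribosomal proteins (78 loci) to zinc finger (Zfp) genes (309), antisense genes (141), proteasome subunits (36), histones (55), pseudogenes (73), loci with a microRNA (221) and complexes III to V (38), had medians from -0.01 to 0.09. Without control sample 3 the histones stood at 0.25 and the antisense genes at -0.05.

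Most markers of the cell line were measured. Of the neuroblastoma and neuronal markers 15 of 19 loci were tested, among them Phox2a with 593, 662 and 571 normalized counts against 596, 506 and 649. Their median was -0.16, and 3 were positive. Gata3 and Map2 (13.3% of the list, beside 3.15% of all tested loci) lay below control in all samples, with log2 fold changes of -0.17 and -0.18 and intervals that included 0. Of 8 fibroblast and 8 blood or immune marker loci none passed the filter, and Col1a2, Dcn, Lum, Ptprc and Cd3e were listed at 0 in all nuclear samples, and of 9 glial loci 3 did, among them Gfap and Mbp with 30.3 to 85.4 normalized counts in these samples.

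Comparisons with the scrambled sequence and with whole cell lysate are given for reference. Nuclear miR-92b against nuclear Scr gave 0 calls in limma, with 687 loci (4.41%) at an unadjusted p under 0.05, 0 calls in edgeR and 1 in DESeq2. Nuclear Scr against the same control samples gave 0 calls in limma, 916 loci (5.88%) unadjusted, and 0 calls in both other tools. For the known targets the medians of these comparisons were -0.07 and -0.02. They share samples with miR-92b against control. The difference between the nuclear and the whole cell effect of miR-92b over control gave 0 calls in limma, 290 loci (1.86%) unadjusted, 0 calls in edgeR and 3 in DESeq2.

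In whole cell samples miR-92b against control gave 1 call (0.00642% of loci, with 4.69% at an unadjusted p under 0.05), the locus of Pcmtd1 and Gm38372 (Pcmtd1 encodes a protein related to isoaspartyl methyltransferases), named after its values were seen. It had 2188, 4905 and 1610 normalized counts with miR-92b and 680, 483 and 439 in control (log2 fold change 2.30, adjusted p = 0.00037 in limma). In nuclear samples it had 660, 584 and 688 against 598, 488 and 574, a log2 fold change of 0.22 (interval -0.36 to 0.80). The difference between the 2 effects was -2.08 (interval -2.90 to -1.26), with an adjusted p of 0.37 in limma.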

How the data were processed

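The authors pulled down RNA, selected poly(A) RNA, made stranded libraries, called bases with bcl2fastq 2.17, trimmed with Trimmomatic 0.30, mapped reads to GRCm38 with TopHat2 and quantified loci with Cufflinks (version of either: not given in the sources used here). Deposited values are normalized counts, a signal of fragments per locus divided by 1 size factor per sample, and FPKM. The authors' comparison tables hold Cuffdiff fold changes and p-values and were not used. Normalized counts were whole multiples of 1 read within 0.02 reads in 634756 of 635205 values above 0 (99.9%), so reads were recovered for edgeR and DESeq2. Intervals and floors cover counting error or the spread between samples only.

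Loci were tested with limma 3.58.1 (with a trend of the variance), two-sided, after a log2 transform with a pseudocount of 1, in a single model over the 6 groups, with Benjamini-Hochberg adjustment over 15579 loci, and fold changes on this scale understate those of low loci. The design had assumed raw counts as first choice; limma was used because the deposited values are normalized. Alternatives were other pseudocounts, filters and scalings, the FPKM table, edgeR 4.0.16, DESeq2 1.42.0 (18 loci without an adjusted p), sample weights, the sample number as a block and each sample left out. The tests were tested on simulated data. Named loci were the 5 in each direction with the smallest p and groups that do not overlap (as fewer than 5 passed), the 2 most abundant of each list, the known targets, Argonaute and TNRC6 genes and fraction markers, and the 5 highest by FPKM. Members and lists were chosen with earlier results of these data known. Seed sites came from GENCODE M21, and 10528 of 10533 loci held their gene's GENCODE region. Several symbols share 1 locus in 1197 of the tested loci. Some loci under the rule are left out of the text.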

Additional observations from a re-analysis of the deposited data

How the results depend on the processing

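For nuclear miR-92b against nuclear control, 20 of 22 alternatives gave 0 calls. Those 20 include an added fold threshold (absolute log2 fold change above 1), which could only give 0 because the main test called 0. With no filter on low counts (28348 loci) limma called 5 loci, all higher, and with sample weights 4, all higher (Gm10260, Gm28437, Pdia3 and Rplp1); the cause was not tested. Leaving out each sample of these groups in turn gave 0 calls each time. For miR-92b against Scr the calls were 5 with no filter, 1 with the FPKM table, 1 with DESeq2 and 0 to 49 with each sample left out (49 without Scr sample 1, 44 higher and 5 lower). For Scr against control they were 1 with the FPKM table and 0 to 69 with each sample left out (69 without Scr sample 1, 11 higher and 58 lower). In both cases Scr samples 2 and 3 then make up the group, and these 2 and control sample 3 correlated with the other nuclear samples and each other at r of 0.703 to 0.839. For the nuclear minus the whole cell effect they were 1 with sample weights, 3 with DESeq2 and 0 to 1 with each sample left out (1 without whole cell miR-92b sample 3). With control sample 3 and Scr samples 2 and 3 left out together, chosen after seeing the data, miR-92b against control gave 0 calls, with 404 loci at an unadjusted p under 0.05.

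Same-numbered miR-92b and control samples deviated from their group means with correlations of 0.02, 0.05 and -0.02. Samples with different numbers gave -0.10 to 0.06. The labels do not say whether same-numbered samples were made together, and correlations within groups of 3 cannot settle it. With the sample number as a block 0 loci were called in each comparison, 56 at an unadjusted p under 0.05 for miR-92b against control. Of 2241 values of the 107 named loci under alternatives, 206 had the other sign, 28 moved by 1 SD or more and 4 passed the threshold. Of 280 medians of 35 gene lists, 49 had the other sign and 3 moved by 1 SD or more. Below a mean of 100 no interval lay within a 2-fold change, and the part of depth in this was not tested.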
